A study of Homo sapiens with 15 samples.

Results

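FOXO1 was added to HGrC1 cells that carried either of 2 forms of FOXL2, and the difference between its effects in the 2 settings was measured gene by gene. HGrC1 is an immortalized, non-luteinized human granulosa cell line, and the cells had been given SMAD3 together with FOXL2WT or FOXL2C134W, each with or without FOXO1-3A, called FOXO1 here. These 4 conditions had 3 RNA-seq libraries each, replicates A, B and C, so the comparison rested on 12 of the 15 libraries of the series. The other 3 came from cells given empty vectors (Vectors) and had no term in the comparison. They entered the choice of genes tested, the scaling, the common estimate of spread and the reference level in the plots. Cells were transfected for 4 h at passage 14 and kept for 24 h without serum, and polyadenylated RNA was read from one end over 75 bases. The conditions were transient overexpression in 1 cell line, each plasmid product came on top of the cells' own gene, and nothing in the labels says that the replicates were separate cultures, so the tests measure the spread between these libraries, which may be technical. The 15 libraries held 14962245 to 25339094 counts.

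FOXL2 is a forkhead transcription factor that maintains granulosa cell identity in the ovary, and the C134W substitution is the recurrent mutation of adult granulosa cell tumors. SMAD3 carries TGF-beta family signals into the nucleus and binds DNA with FOXL2. FOXO1, another forkhead factor, is normally kept out of the nucleus by AKT in cells that receive insulin or growth factors, and it acts on follicle growth and apoptosis in granulosa cells. In FOXO1-3A the AKT sites are alanine, which leaves the protein in the nucleus.

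For each gene, the FOXO1 effect with FOXL2C134W was the log2 fold change between FOXL2C134W + FOXO1 and FOXL2C134W, and the FOXO1 effect with FOXL2WT was defined likewise. The interaction was the first minus the second. A negative interaction therefore means that FOXO1 lowered the gene more, or raised it less, with FOXL2C134W than with FOXL2WT. Of 13868 genes with enough counts to be tested, 192 had an interaction with an adjusted p under 0.05 (edgeR quasi-likelihood test with Benjamini-Hochberg adjustment), which is 1.38% of those tested. The interaction was negative for 173 of them (1.25%) and positive for 19 (0.137%). FOXL2, SMAD3 and FOXO1 themselves were among these, which left 172 genes below 0 and 17 above 0.

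Within the separate settings, 99 genes differed with FOXO1 in FOXL2C134W cells (0.714%), of which 98 fell and 1, FOXO1 itself, rose. In FOXL2WT cells 7 genes differed (0.0505%), 2 of them higher and 5 lower. With FOXL2C134W the count was 355 without FOXL2C134W A, 231 without FOXL2C134W + FOXO1 B, 11 without FOXL2C134W + FOXO1 A, and 5 without FOXL2C134W B, FOXL2C134W C or FOXL2C134W + FOXO1 C. The comparison of FOXL2C134W with FOXL2WT gave 1560 genes without FOXO1 (11.2%), 989 higher and 571 lower in FOXL2C134W. With FOXO1 in both, it gave 20 genes (0.144%), 5 higher and 15 lower. These counts share libraries with the interaction and are given beside it as its components. At an unadjusted edgeR p under 0.05 the FOXO1 effect gave 1557 genes with FOXL2C134W and 1266 with FOXL2WT. Its standard deviation across genes, without the transfected, was 0.32 in both settings. The FOXL2 forms gave 3535 genes without FOXO1 and 1878 with it at that p, with standard deviations of 0.33 and 0.35. These standard deviations include weakly counted genes. At a mean of at least 1 CPM that of the FOXO1 effect was 0.21 with FOXL2C134W and 0.18 with FOXL2WT. The numbers of calls are by themselves no measure of the size of these effects. DESeq2 with transcript length offsets changed the split of directions, giving 28 positive and 92 negative interactions, 16 genes higher and 45 lower with FOXO1 in FOXL2C134W, and 44 higher and 25 lower with FOXO1 in FOXL2WT.

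The number of calls depended on single libraries. It was 423 without FOXL2C134W replicate A and 303 without FOXL2C134W + FOXO1 replicate B. It fell to 121 without FOXL2C134W + FOXO1 replicate C, 83 and 78 without FOXL2C134W replicates C and B, 56 without FOXL2WT replicate B, 47 without FOXL2WT + FOXO1 replicate B and 45 without FOXL2C134W + FOXO1 replicate A. All 189 genes kept the sign of their interaction when any of the 12 libraries was left out, and between 43 and 188 of them were still called. FOXL2C134W A, FOXL2WT + FOXO1 A and FOXL2C134W + FOXO1 C stood apart from the other libraries of their conditions along the main axis of variation between replicates. With all 3 left out, 1188 genes were called, 328 positive and 860 negative, and 183 of the 189 were among them with the same sign. On that axis FOXL2C134W A and FOXL2WT + FOXO1 A lay at 0.48 and FOXL2C134W + FOXO1 C at -0.36. Leaving them out moved the means of their conditions along that axis, so that the interaction took up part of it. The counts without these 3 libraries, here and below, are therefore no test of robustness.

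The transfected genes came first, since they check the labels. FOXL2, counted at chr3:138944224-138947137 (GENCODE 44, GRCh38), had 562, 566 and 554 CPM (gene counts relative to the total of the library, scaled by TMM) in FOXL2WT replicates A, B and C and 376, 374 and 401 CPM in FOXL2WT + FOXO1. It had 175, 146 and 121 CPM in FOXL2C134W and 142, 176 and 139 CPM in FOXL2C134W + FOXO1, against 8.28 to 9.54 CPM in Vectors. FOXL2 was thus far above Vectors in every transfected library, and higher with the WT form than with C134W. With FOXO1 it fell by 0.55 on the log2 scale in the WT setting (adjusted p = 0.031) and was at 0.05 in the C134W setting (adjusted p = 0.921). Its interaction was 0.60 ± 0.13 (log2, SE, adjusted p = 0.0333 in edgeR), and between adjusted p = 2.97e-16 and 0.106 over 25 alternative analyses.

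SMAD3, counted at chr15:67063763-67195173, had 2889, 2821 and 2595 CPM in FOXL2WT and 976, 957 and 975 CPM in FOXL2WT + FOXO1. In FOXL2C134W it had 885, 833 and 812 CPM, and in FOXL2C134W + FOXO1 379, 411 and 385 CPM. SMAD3 fell with FOXO1 in both settings, by 1.51 ± 0.05 and by 1.11 ± 0.05 on the log2 scale, and no library of a condition with FOXO1 reached the lowest library of its counterpart without. Its interaction was 0.41 ± 0.07 (adjusted p = 0.0065, edgeR), and 0.05 with transcript length offsets, where it was not called (adjusted p = 0.941 in DESeq2, the highest of its 25 alternatives, against 3.08e-09 for the lowest).

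FOXO1, counted at chr13:40555667-40666641, had 104, 116 and 132 CPM in FOXL2WT + FOXO1 but 43.3, 47.2 and 39.1 CPM in FOXL2C134W + FOXO1. Without its plasmid it lay between 11.6 and 13.8 CPM in the 9 remaining libraries. Its interaction was -1.41 ± 0.13 (adjusted p = 4.72e-05, edgeR), called in all 25 alternatives. The transcript amounts of all 3 transfected genes therefore differed between the FOXL2 forms. What the form does and what the amount of FOXO1, SMAD3 or FOXL2 does cannot be told apart in the interaction. These are RNA values. The study judged the FOXL2WT, FOXL2C134W and FOXO1 proteins to be balanced in an anti-Flag immunoblot of cells cultured in parallel.

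**Figure D1:**
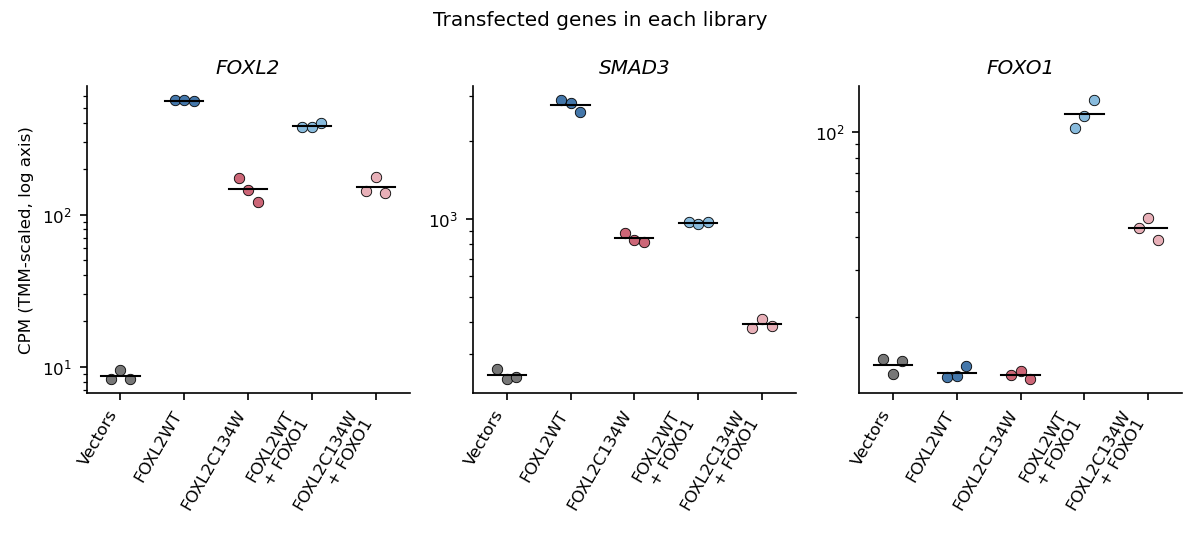
CPM on a log axis of the 3 transfected genes in each of the 15 libraries (points) with the mean of each condition (bars). FOXO1 is at 104 to 132 CPM in FOXL2WT + FOXO1 and at 39.1 to 47.2 CPM in FOXL2C134W + FOXO1, and SMAD3 is lower with FOXO1 than without it for both FOXL2 forms.

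HGrC1 cells carried part of the granulosa program. Of 14 granulosa markers, GATA4, WT1 and FST were well counted, while FSHR was at 0 in all 12 libraries and INHA and CYP19A1 reached at most 3 and 4 counts. Among markers of other cell types, the keratins KRT7, KRT8 and KRT18 were abundant, CDH1 reached at most 8 counts and MUC16 was at 0. Of the immune markers CD68 had 1319 to 2313 counts and PTPRC at most 5, and of the endothelial markers KDR and TEK had 152 to 276 and 174 to 312 counts and CLDN5 at most 2. The summed level of 9 epithelial markers was 6185.7 to 7003.25 CPM in FOXL2C134W and 6508.77 to 6607.5 CPM in FOXL2WT. The summed level of 8 theca and stroma markers was 296 to 314 CPM in FOXL2C134W, 251 to 281 CPM in FOXL2WT, 261 to 279 CPM in FOXL2WT + FOXO1 and 275 to 295 CPM in FOXL2C134W + FOXO1, of which NR2F2 had the most counts and PDGFRB 482 to 931, and its part in the results was not tested. In such bulk samples, fewer cells of a kind and less RNA per cell cannot be told apart.

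Genes with a positive interaction included interferon-induced genes, and the windows of 250 bases before their RefSeq start sites (GRCh38.p14) were searched for short motifs on both strands. A window matched for 10 of the 17 genes above 0 by symbol, for 130 of the 172 below 0 and for 10791 of all tested genes. Where a gene had more than 1 window, the window with the most matches was counted and is shown. RSAD2 had 2 windows, and the window shown lies inside its GENCODE locus. SMARCA4 also had 2, and the window shown crosses the start of its GENCODE locus. The interferon-stimulated response element, searched as 2 GAAA half-sites with any 2 bases between them, was present for 2 of the 10 genes (20%) and for 3.35% of all tested genes with a window. RSAD2 and IFIT5 held it, both from the interferon response list, in which 26 of 42 tested genes with a window did (61.9%), and both are shown with the matches in capitals. The NF-kappaB motif, GGGA and TTCC with any 2 bases between them, was found before 1 of the 10, NFKBIA, and before 1.95% of all tested genes.
RSAD2, chr2:6877527-6877776, plus strand: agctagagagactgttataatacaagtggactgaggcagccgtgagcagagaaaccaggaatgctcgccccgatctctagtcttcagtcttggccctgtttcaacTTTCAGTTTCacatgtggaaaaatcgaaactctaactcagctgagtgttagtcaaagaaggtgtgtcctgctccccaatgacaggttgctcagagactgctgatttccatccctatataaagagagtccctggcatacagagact
IFIT5, chr10:89414318-89414567, plus strand: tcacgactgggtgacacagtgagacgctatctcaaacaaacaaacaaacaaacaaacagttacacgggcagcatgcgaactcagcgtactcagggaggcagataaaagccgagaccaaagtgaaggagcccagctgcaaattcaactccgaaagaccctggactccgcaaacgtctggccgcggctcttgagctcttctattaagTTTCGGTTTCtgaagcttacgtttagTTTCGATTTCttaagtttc
NFKBIA, chr14:35404750-35404999, minus strand: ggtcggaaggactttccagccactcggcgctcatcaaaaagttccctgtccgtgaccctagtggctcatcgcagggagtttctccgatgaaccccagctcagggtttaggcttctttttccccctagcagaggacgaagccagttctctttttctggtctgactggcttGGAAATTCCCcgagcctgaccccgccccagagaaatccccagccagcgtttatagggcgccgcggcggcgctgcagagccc

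Windows before the genes below 0 were rich in G and C, with a median of 67.8% against 64.8% over all tested genes. The GC box GGGCGG was found before 111 of the 130 (85.4%) and before 74.9% of all tested genes. It is shown in capitals for SMARCA4 and HSPG2, whose windows held 4 and 8 matches, those that overlap counted separately. The forkhead motif GTAAACA was found before 3 of the 130 (2.31%) against 3.01% of all tested genes, and CAGACA, a core of SMAD sites, before 25 (19.2%) against 14.0%. A match describes the letters of a window and does not show binding.
SMARCA4, chr19:10960780-10961029, plus strand: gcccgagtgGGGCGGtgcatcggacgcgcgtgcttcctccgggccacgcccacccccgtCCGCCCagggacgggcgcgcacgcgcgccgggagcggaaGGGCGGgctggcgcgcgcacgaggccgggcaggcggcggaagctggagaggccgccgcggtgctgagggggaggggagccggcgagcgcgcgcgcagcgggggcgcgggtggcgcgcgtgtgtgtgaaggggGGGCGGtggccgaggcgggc
HSPG2, chr1:21937311-21937560, minus strand: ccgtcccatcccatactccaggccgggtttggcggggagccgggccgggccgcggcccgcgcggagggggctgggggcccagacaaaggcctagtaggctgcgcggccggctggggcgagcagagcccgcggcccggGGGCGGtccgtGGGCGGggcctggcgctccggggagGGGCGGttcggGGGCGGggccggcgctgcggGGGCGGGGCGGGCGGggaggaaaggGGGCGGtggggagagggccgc

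The medians over the 172 genes below 0 followed 1 pattern across the 4 conditions, from which single genes departed. Relative to the mean of Vectors, the median log2-CPM of the 172 genes was -0.15, -0.28 and -0.18 in FOXL2WT replicates A, B and C and 0.20, 0.33 and 0.35 in FOXL2C134W. With FOXO1 the medians were -0.01, 0.06 and -0.05 in FOXL2WT + FOXO1 and -0.09, 0.07 and -0.01 in FOXL2C134W + FOXO1. The FOXL2WT libraries lay below all others and the FOXL2C134W libraries above all others, while the 6 libraries with FOXO1 overlapped those of Vectors, which were at -0.04 to 0.07. Selection on the interaction in these same libraries favors high FOXL2C134W and low FOXL2WT values, so this order is partly built in. The median interaction of the 172 genes was -0.51, made of a median FOXO1 effect of -0.30 with FOXL2C134W and 0.20 with FOXL2WT. The FOXO1 effect was below 0 with FOXL2C134W and above 0 with FOXL2WT for every one of the 172, a pair of signs that selection on their difference favors. Among 12464 genes with a mean of at least 1 CPM over the 12 libraries, 3280 had that pair of signs and 3557 the reverse pair.

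The same values can be read as differences between the FOXL2 forms. The median difference of FOXL2C134W from FOXL2WT over the 172 genes was 0.49 without FOXO1 and -0.02 with it. Single genes departed from these medians, as did ULK1, described below, at 0.24 without FOXO1 and -0.30 with it. The interaction exceeded 1.5-fold in 66 of the 172 genes and 2-fold in 8, against 871 and 284 of 13865 tested genes. Selection on the interaction itself favors large values among the called genes. For the 17 genes above 0, the median interaction was 0.31, with FOXO1 effects of 0.11 with FOXL2C134W and -0.21 with FOXL2WT. Their medians relative to Vectors were 0.05, 0.12 and 0.02 in FOXL2WT, -0.21, -0.19 and -0.18 in FOXL2C134W, -0.16, -0.16 and -0.15 in FOXL2WT + FOXO1 and -0.12, -0.17 and -0.02 in FOXL2C134W + FOXO1. None of the 17 exceeded 1.5-fold. The FOXL2C134W libraries lay below all others, and the FOXL2WT libraries overlapped those of Vectors, which were at -0.03 to 0.05. Here selection on the interaction favors low FOXL2C134W and high FOXL2WT values.

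**Figure D2:**
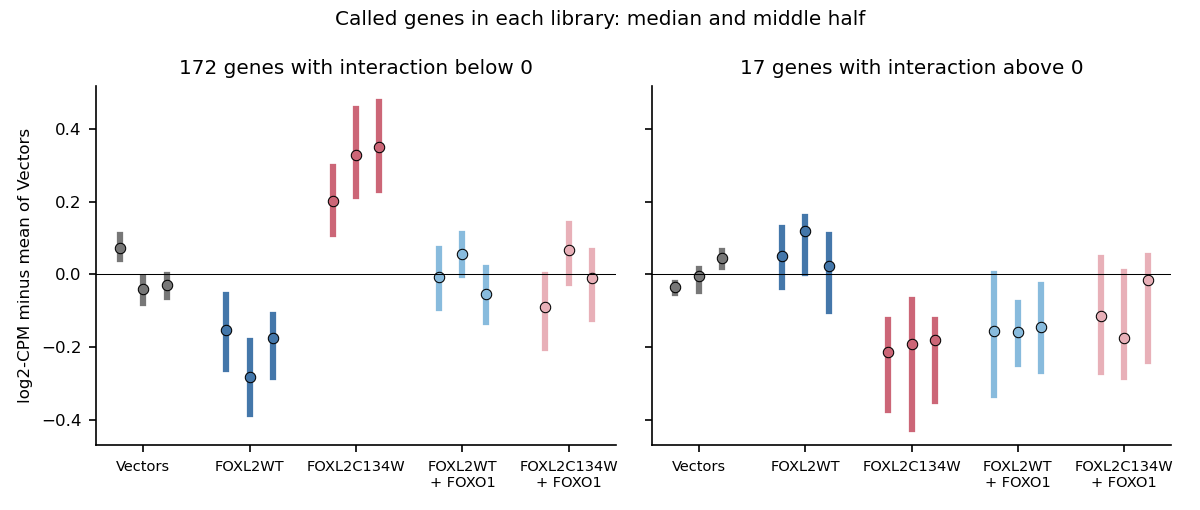
Log2-CPM relative to the mean of Vectors in each of the 15 libraries, for the 172 genes with an interaction below 0 (left) and the 17 above 0 (right), with points for the median over genes and bars from the lower to the upper quartile of genes. On the left, FOXL2WT libraries are at -0.28 to -0.15 and FOXL2C134W libraries at 0.20 to 0.35, and the libraries with FOXO1 lie between -0.09 and 0.07. The genes were selected on the interaction in these same data, which favors this order.

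Across all 13865 tested genes other than the transfected, the FOXO1 effects in the 2 settings had a Pearson correlation of -0.0093 and a slope of -0.0092. The 2 effects share no library, but genes are not independent replicates. Over the 12464 genes with a mean of at least 1 CPM the correlation was 0.19 and the slope 0.22, with a standard deviation of the effect of 0.21 with FOXL2C134W and 0.18 with FOXL2WT. The correlation was -0.13 over genes with at least 10 counts in every library, and DESeq2 estimates gave 0.353 over all tested genes, so that its sign depended on the genes and the tool.

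**Figure D3:**
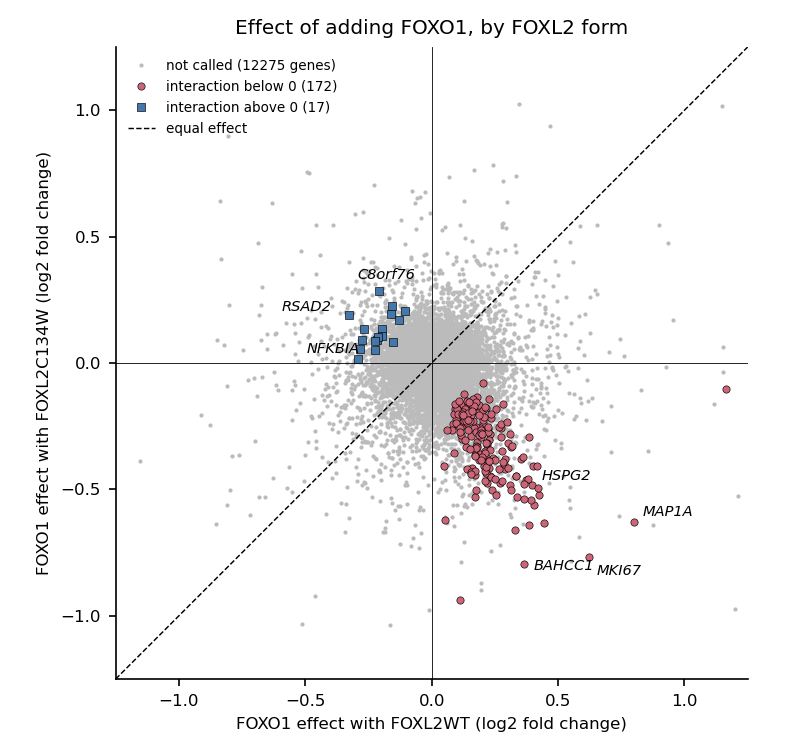
FOXO1 effect with FOXL2WT (x axis, log2 fold change) against FOXO1 effect with FOXL2C134W (y axis) for genes with a mean of at least 1 CPM, without the transfected genes. The 172 genes with a negative interaction (circles) lie at the lower right, below the dashed line of equal effects, and the 17 with a positive interaction (squares) at the upper left, and 17 genes, 1 of them called, lie outside the axes.

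The list of chromatin remodeling and modification held 59 tested genes, of which 13 were called below 0 and 0 above, where 1.25% of all tested genes were below 0. Its median interaction was -0.31, with FOXO1 effects of -0.19 with FOXL2C134W and 0.13 with FOXL2WT, where the medians over all tested genes were 0.01, 0.00 and 0.00. The calls below 0 were 33 without FOXL2C134W A, 8 without FOXL2C134W B or C, 7 without FOXL2WT B and 6 without FOXL2WT + FOXO1 B or FOXL2C134W + FOXO1 A. They were 5 with transcript length offsets and 43 without the 3 libraries that stood apart.

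SMARCA4, the BRG1 ATPase of SWI/SNF complexes (chr19:10960932-11079426), had 73.3, 66.7 and 73.2 CPM in FOXL2WT and 88.7, 89.7 and 87.9 CPM in FOXL2WT + FOXO1. It had 106, 115 and 119 CPM in FOXL2C134W and 82.6, 95.0 and 93.1 CPM in FOXL2C134W + FOXO1. FOXL2C134W was highest and FOXL2WT lowest with no overlap with either condition with FOXO1. The interaction was -0.65 ± 0.08 (adjusted p = 0.00124), and it was called in all 25 alternatives, with adjusted p up to 0.0072.

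HCFC1, a chromatin-bound cofactor of cell cycle transcription, had an interaction of -0.74 ± 0.10 (adjusted p = 0.0016), from means of 52.5 ± 1.44 CPM in FOXL2WT, 85.1 ± 6.99 in FOXL2C134W, 62.0 ± 3.74 in FOXL2WT + FOXO1 and 60.1 ± 4.28 in FOXL2C134W + FOXO1 (SD, n = 3 libraries each). CREBBP, a histone acetyltransferase, had an interaction of -0.87 ± 0.14 (adjusted p = 0.0065), and EP400, the ATPase of the TIP60 complex, -0.78 ± 0.15 (adjusted p = 0.014). BAZ2A, of the nucleolar remodeling complex, was at -0.27 ± 0.08 and was not called (adjusted p = 0.113). All of these p are from the same edgeR fit.

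**Figure D4:**
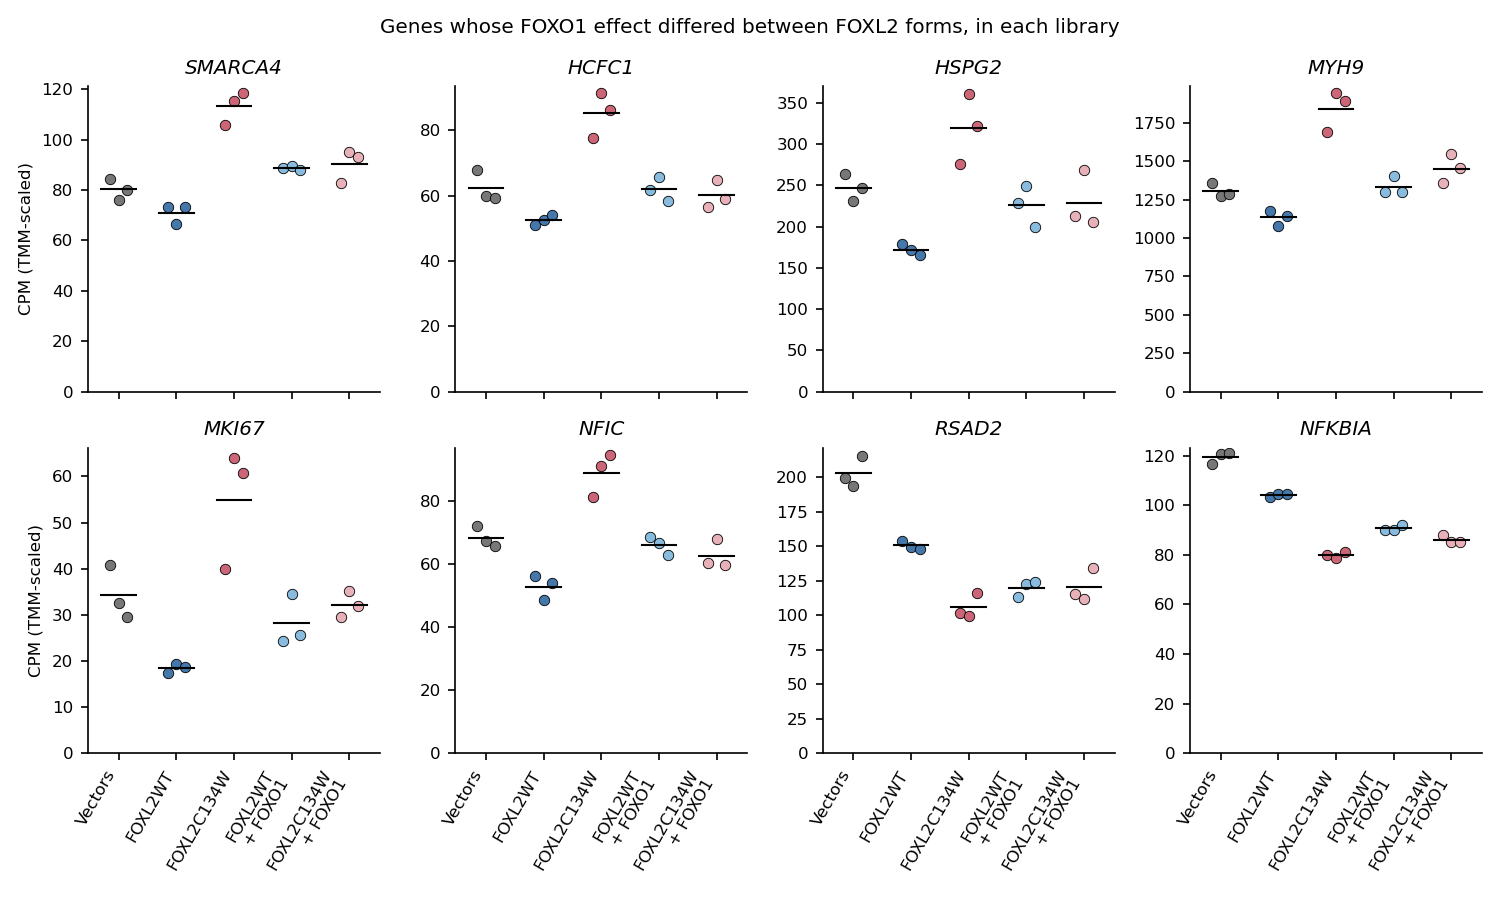
CPM on linear axes from 0 of 8 called genes in each of the 15 libraries (points) with the mean of each condition (bars). SMARCA4, HCFC1, HSPG2, MYH9, MKI67 and NFIC are highest in FOXL2C134W and lowest in FOXL2WT, RSAD2 and NFKBIA are lower in FOXL2C134W than in FOXL2WT, and both conditions with FOXO1 lie between them in the means.

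Of 37 tested genes of basement membrane and collagen, 5 were called below 0 and 1 above, where 1.25% and 0.137% of all tested genes were. The calls below 0 were 10 without FOXL2C134W A, 9 without FOXL2C134W + FOXO1 B, 8 without FOXL2WT + FOXO1 A and 3 with GC offsets. The median interaction was -0.22, with a FOXO1 effect of -0.12 with FOXL2C134W and 0.10 with FOXL2WT. HSPG2 encodes perlecan, a heparan sulfate proteoglycan of basement membranes, at chr1:21822244-21937310. It had 178, 171 and 166 CPM in FOXL2WT, 276, 360 and 321 CPM in FOXL2C134W, 228, 249 and 200 CPM in FOXL2WT + FOXO1 and 213, 268 and 205 CPM in FOXL2C134W + FOXO1. Its interaction was -0.88 ± 0.14 (adjusted p = 0.0065, edgeR), and here too the 2 conditions with FOXO1 overlapped while FOXL2WT and FOXL2C134W lay below and above them.

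LAMA5, a laminin chain, had an interaction of -0.68 ± 0.12 (adjusted p = 0.00957), COL5A1, a fibrillar collagen chain, -0.55 ± 0.09 (adjusted p = 0.00869), and COL4A2, a basement membrane collagen chain, -0.37 ± 0.07 (adjusted p = 0.0109), all in edgeR. COL18A1, whose product carries endostatin, was at -0.47 ± 0.11 and just missed the threshold (adjusted p = 0.0504). The 1 gene of the list above 0 was SDC2, a cell-surface heparan sulfate proteoglycan (0.30 ± 0.06, adjusted p = 0.0239), which turned to -0.11 with transcript length offsets and lost its call in 7 of 25 alternatives. In the list of TGF-beta and SMAD3 targets 2 of 42 were called below 0, where 1.25% of all tested genes were. They were COL1A1 (-0.34 ± 0.07) and LTBP2 (-0.32 ± 0.08), and the median interaction of the list was -0.00. These calls were lost in 8 and 16 of 25 alternatives. Without the 3 libraries that stood apart 5 genes of the list were called above 0 and 3 below. The list had 0 calls below 0 with the 12 libraries alone and without FOXL2WT B, FOXL2C134W B or C, FOXL2WT + FOXO1 B, or FOXL2C134W + FOXO1 A or C, 1 without FOXL2WT A or C or FOXL2WT + FOXO1 A, and 5 without FOXL2C134W + FOXO1 B.

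Of 36 genes of filamins, myosins and focal adhesions, 8 were called below 0 and 0 above, where 1.25% of all tested genes were below 0, and the median interaction was -0.17. The calls were 15 without FOXL2C134W A, 5 without FOXL2WT C, FOXL2C134W C or FOXL2C134W + FOXO1 C, and 3 without FOXL2WT B, FOXL2C134W B, FOXL2WT + FOXO1 B or FOXL2C134W + FOXO1 A. They were 4 with transcript length or with GC offsets. MYH9, the heavy chain of non-muscle myosin IIA at chr22:36281280-36388010, had 1177, 1081 and 1146 CPM in FOXL2WT and 1687, 1946 and 1889 CPM in FOXL2C134W. With FOXO1 it had 1299, 1402 and 1296 CPM in FOXL2WT + FOXO1 and 1357, 1544 and 1453 CPM in FOXL2C134W + FOXO1. Its interaction was -0.57 ± 0.08 (adjusted p = 0.0016, edgeR). FLNA and FLNC, actin crosslinkers, were at -0.35 ± 0.06 (adjusted p = 0.0108) and -0.39 ± 0.08 (adjusted p = 0.0149), and PLEC, which links intermediate filaments to adhesions, at -0.68 ± 0.11 (adjusted p = 0.0065).

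Of 43 mitosis and G2/M genes 4 were called below 0, where 1.25% of all tested genes were. Of 42 genes of DNA replication 0 were called in either direction by the main edgeR fit or DESeq2. For 6 of these 42 the unadjusted edgeR p was under 0.05. Of the 42, 1 was called below 0 without FOXL2C134W A. Without the 3 libraries that stood apart 6 were called below 0 and 1 above. MKI67, the Ki-67 proliferation antigen at chr10:128096659-128126423, had 17.5, 19.3 and 18.7 CPM in FOXL2WT, 39.9, 63.9 and 60.6 CPM in FOXL2C134W, 24.2, 34.6 and 25.7 CPM in FOXL2WT + FOXO1 and 29.4, 35.1 and 31.9 CPM in FOXL2C134W + FOXO1. FOXL2C134W A was nearer to the libraries with FOXO1 than to FOXL2C134W B and C, though above all of them. The interaction was -1.39 ± 0.23 (adjusted p = 0.00667, edgeR). The other 3 were FOXM1, a mitotic transcription factor (-0.29 ± 0.07), KIF18B, a mitotic kinesin (-0.34 ± 0.08), and INCENP, a scaffold of the chromosomal passenger complex (-0.28 ± 0.07), each with adjusted p of 0.0411 to 0.0455 in edgeR, and INCENP turned to 0.13 with transcript length offsets. These 3 lost their calls in 11, 15 and 14 of 25 alternatives. The mitosis list had 1 call without FOXL2WT A or B, FOXL2C134W B or C, FOXL2WT + FOXO1 A or B, or FOXL2C134W + FOXO1 A or C. It had 1 with GC offsets and 1 with the replicate block.

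Other transcriptional regulators stood at the head of the genes below 0. NFIC, a nuclear factor I family member at chr19:3314403-3469217, had 56.0, 48.4 and 53.9 CPM in FOXL2WT, 81.2, 90.8 and 94.5 CPM in FOXL2C134W, 68.6, 66.5 and 62.6 CPM in FOXL2WT + FOXO1 and 60.3, 68.0 and 59.6 CPM in FOXL2C134W + FOXO1. Its interaction was -0.82 ± 0.10 (adjusted p = 0.000456, edgeR) and it was called in all 25 alternatives. GLI2, a transcription factor of Hedgehog signaling, was at -0.79 ± 0.12 (adjusted p = 0.00527). BCL9L, a coactivator of beta-catenin, was at -0.64 ± 0.10, GATAD2A, of the NuRD complex, at -0.45 ± 0.07 and MN1, a transcriptional coregulator, at -0.61 ± 0.10 (each adjusted p = 0.0065), and TNRC18 at -0.92 ± 0.13 (adjusted p = 0.0037).

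The largest negative interactions needed care. Besides MKI67 the first 6 by size were those of MAP1A, a microtubule-associated protein (-1.43 ± 0.24, adjusted p = 0.008), BAHCC1, a chromatin reader (-1.16 ± 0.23, adjusted p = 0.0182), CEP250, a centrosomal linker protein (-1.08 ± 0.23, adjusted p = 0.0231), ARHGAP11B and PPP1R14BP3, all in edgeR. ARHGAP11B shares most of its sequence with ARHGAP11A, so its reads may be split between the copies, and its interaction of -1.27 ± 0.28 (adjusted p = 0.0321) was 0.00 with transcript length offsets. PPP1R14BP3 is a processed pseudogene whose counts were 0, 0 and 28 in FOXL2WT, 79, 55 and 96 in FOXL2C134W, 84, 10 and 0 in FOXL2WT + FOXO1 and 0 in all 3 libraries of FOXL2C134W + FOXO1. With so many zeros and replicates that disagree its fitted fold has no stable size.

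Of 54 tested genes of the interferon response list, 4 were called above 0 and 0 below, where 0.137% of all tested genes were above 0, with a median interaction of 0.13 and FOXO1 effects of 0.04 with FOXL2C134W and -0.08 with FOXL2WT. There were 7 calls above 0 without FOXL2C134W A or FOXL2C134W + FOXO1 B, 2 without FOXL2WT B or FOXL2C134W + FOXO1 A, 1 without FOXL2WT + FOXO1 B, and 14 without the 3 libraries that stood apart. RSAD2, the antiviral enzyme viperin at chr2:6865557-6898239, had 154, 150 and 148 CPM in FOXL2WT and 113, 122 and 124 CPM in FOXL2WT + FOXO1. It had 102, 99.4 and 116 CPM in FOXL2C134W and 115, 112 and 135 CPM in FOXL2C134W + FOXO1, against 194 to 216 CPM in Vectors. FOXL2WT lay above the other 3 conditions, which overlapped, and all 12 libraries lay below Vectors. The interaction was 0.52 ± 0.10 (adjusted p = 0.0125, edgeR), while neither FOXO1 effect passed the test by itself (adjusted p = 0.251 with FOXL2C134W and 0.103 with FOXL2WT).

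CMPK2, the neighbor of RSAD2 in the genome and a nucleotide kinase, had an interaction of 0.34 ± 0.06 (adjusted p = 0.0127), and it was among the genes that fell with FOXO1 in FOXL2WT cells, by 0.28 on the log2 scale (adjusted p = 0.0216). IFIT5, an RNA-binding antiviral protein, had 216, 229 and 210 CPM in FOXL2WT and 182, 189 and 193 CPM in FOXL2WT + FOXO1. In FOXL2C134W it had 187, 189 and 189 CPM and in FOXL2C134W + FOXO1 202, 191 and 209 CPM, so that the order of the libraries with and without FOXO1 was opposite in the 2 settings. Its interaction was 0.31 ± 0.06 (adjusted p = 0.0166), that of TRIM22, an antiviral ubiquitin ligase, 0.31 ± 0.07 (adjusted p = 0.0359) and that of UBE2L6, the conjugating enzyme for ISG15, 0.31 ± 0.06 (adjusted p = 0.0129), all in edgeR. UBE2L6 was not on the list, and TRIM22 lost its call in 11 of 25 alternatives.

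NFKBIA, the inhibitor of NF-kappaB that is itself induced by it, had the smallest p above 0 apart from the transfected genes. It had 103, 105 and 104 CPM in FOXL2WT, 90.2, 90.2 and 91.9 CPM in FOXL2WT + FOXO1, 80.0, 78.8 and 81.2 CPM in FOXL2C134W and 87.9, 85.1 and 85.2 CPM in FOXL2C134W + FOXO1. The 4 conditions did not overlap, and those with FOXO1 lay inside those without. The interaction was 0.30 ± 0.05 (adjusted p = 0.00825, edgeR) and was called in all 25 alternatives. No other of the 28 tested genes of the NF-kappaB response list was called, and the median of the list was 0.00. Of all tested genes 0.137% were called above 0.

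The rest of the group above 0 was mixed. F2RL1, a protease-activated receptor, was at 0.36 ± 0.07 (adjusted p = 0.0175), KLF10, a TGF-beta-inducible repressor, at 0.31 ± 0.07 (adjusted p = 0.0334), and XBP1, the transcription factor of the unfolded protein response, at 0.24 ± 0.06 (adjusted p = 0.0423). C8orf76 (0.49 ± 0.11), MTERF3, a regulator of mitochondrial transcription (0.39 ± 0.09), AZIN1, the antizyme inhibitor (0.28 ± 0.06), TEF, a circadian transcription factor (0.40 ± 0.10), and AVEN, an apoptosis inhibitor (0.36 ± 0.09), had adjusted p of 0.0251 to 0.05 in edgeR. Of 25 alternatives the call was lost in 17 for AVEN, 14 for TEF, 12 for XBP1, 11 for MTERF3, 10 for KLF10, 9 for AZIN1, 8 for C8orf76 and 3 for F2RL1, and MTERF3 fell to 0.04 in one of them (adjusted p = 0.963). DDX58, the RNA sensor RIG-I (0.33 ± 0.08), and RINT1, of vesicle transport (0.31 ± 0.08), which fell outside the rule for naming genes and were named after their values were seen, completed the group. In 5 of the 17 genes above 0 the locus was on chromosome 8, which held 460 of the tested genes with a median interaction of 0.03.

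Of 46 tested FOXO targets 0 were called above 0 and 1 below, a share near the 1.25% of all tested genes, with a median interaction of 0.04 and FOXO1 effects of 0.00 with FOXL2C134W and -0.02 with FOXL2WT. The 1 was ULK1, a kinase that starts autophagy, with 16.9, 14.8 and 16.5 CPM in FOXL2WT, 17.8, 19.3 and 17.4 CPM in FOXL2WT + FOXO1, 19.7, 17.9 and 19.7 CPM in FOXL2C134W and 14.1, 15.9 and 14.5 CPM in FOXL2C134W + FOXO1. Unlike SMARCA4, HSPG2, MYH9, MKI67 and NFIC, it was lowest in FOXL2C134W + FOXO1, though that condition overlapped FOXL2WT. Its interaction was -0.54 ± 0.11 (adjusted p = 0.0166, edgeR). TXNIP, which restrains thioredoxin, and IRS2, an insulin receptor substrate, were at 0.25 ± 0.07 (adjusted p = 0.0824) and -0.39 ± 0.11 (adjusted p = 0.0844). Without the 3 libraries that stood apart 3 FOXO targets were called below 0 and 1 above.

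Granulosa and steroid genes, 27 tested, had 1 call, FOXL2 itself, and a median interaction of -0.01. GATA4 and SOX9, gonadal transcription factors, were at -0.18 ± 0.06 (adjusted p = 0.215) and -0.29 ± 0.10 (adjusted p = 0.187). Of 44 ATF4 targets only XBP1 was called, at a median of 0.07, and of 28 immediate early genes only KLF10, at a median of 0.03. Of all tested genes 0.137% were called above 0. Without the 3 libraries that stood apart these lists had 7 and 4 calls above 0. ATF3, a stress-induced repressor, fell with FOXO1 in FOXL2WT cells by 0.55 on the log2 scale (adjusted p = 0.004), and its interaction of 0.33 ± 0.11 was not called (adjusted p = 0.179). Of 77 cytosolic ribosomal protein genes 0 were called by the main edgeR fit or DESeq2, at a median of -0.04. An unadjusted edgeR p under 0.05 held for 0 of them. Without the 3 libraries that stood apart 9 were called above 0, at a median of 0.13. With a filter of at least 1 count in any library, or a covariate for the variation between replicates, 1 was called below 0. Of 22 heat shock chaperones 0 were called by the main edgeR fit and 1 by DESeq2, at a median of 0.04. For 5 of these 22 the unadjusted edgeR p was under 0.05. Without the 3 libraries that stood apart 2 of them were called above 0 and 1 below.

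Over the 12 tested genes of the mitochondrial genome the median interaction was -0.36, with a FOXO1 effect of -0.40 with FOXL2C134W and -0.01 with FOXL2WT, so that most of it lay in 1 setting. In that setting 7 of the 12 were called lower with FOXO1, where 0.714% of all tested genes were called in either direction. In the interaction 2 were called below 0, where 1.25% of all tested genes were. They were MT-ND4L (-0.68 ± 0.16, adjusted p = 0.0415) and MT-ND1 (-0.46 ± 0.11, adjusted p = 0.0471), both in edgeR. MT-ND5 and MT-ND4, like these subunits of complex I, were just outside (adjusted p = 0.0528 and 0.0555 in edgeR). MT-ND4L and MT-ND1 lost their calls in 13 and 12 of 25 alternatives. The list had 8 calls without FOXL2C134W A and 1 without FOXL2WT A or FOXL2C134W + FOXO1 B. It had 0 without FOXL2WT B, FOXL2C134W B or C, FOXL2WT + FOXO1 A or B, or FOXL2C134W + FOXO1 A or C. It also had 0 with the 12 libraries alone and 0 with the replicate block. MT-ND4 had 372, 453 and 461 CPM in FOXL2C134W and 321, 297 and 286 CPM in FOXL2C134W + FOXO1, against 293, 279 and 319 CPM in FOXL2WT and 311, 303 and 247 CPM in FOXL2WT + FOXO1. These transcripts made up 0.314% to 0.369% of all counts in FOXL2C134W and 0.264% to 0.309% in the other 4 conditions, and the part of RNA quality in this was not tested.

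**Figure D5:**
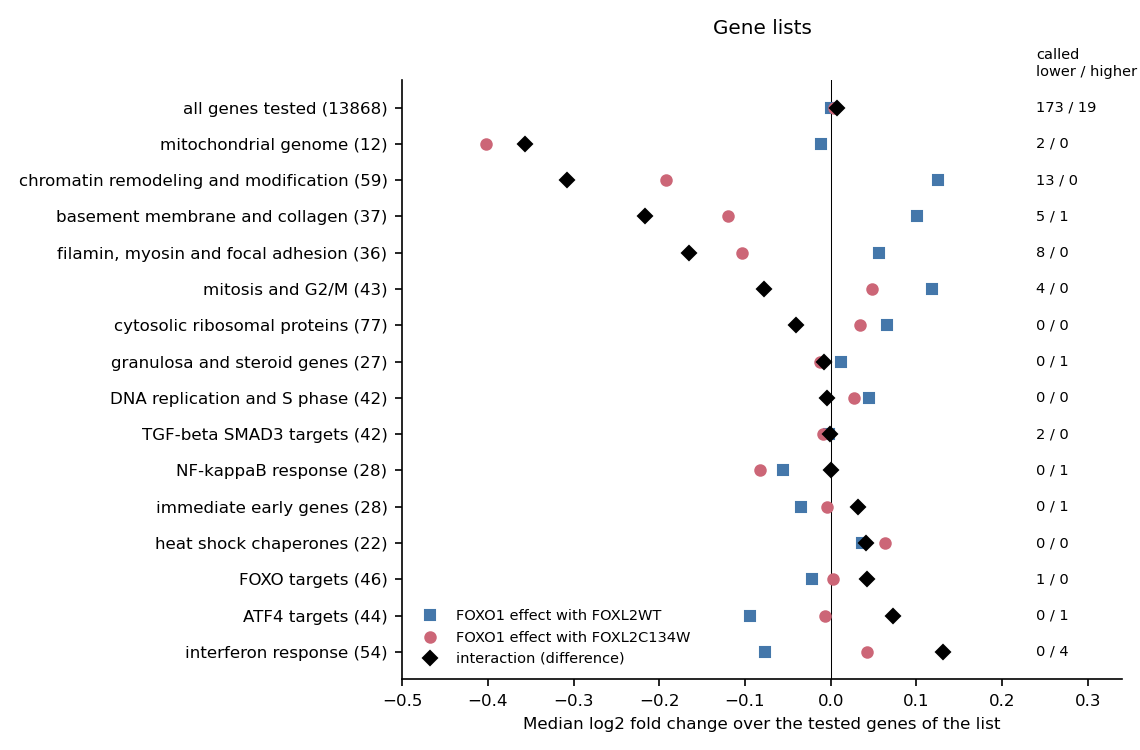
Median log2 fold change over the tested genes of each list (number in parentheses) for the FOXO1 effect with FOXL2WT (squares), with FOXL2C134W (circles) and their difference, the interaction (diamonds), with the number of called genes below and above 0 at the right. The medians of the mitochondrial, chromatin, basement membrane and adhesion lists are -0.36, -0.31, -0.22 and -0.17, and that of the interferon list is 0.13.

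A set of 23 genes was taken from those discussed in the study, most of which came from these same libraries, so their values are not independent evidence of a direction. The set does not hold every gene the study names, and MYH9, GLI2 and ATF3, described above, are outside it. Of the 23 genes 22 were tested, and CYP19A1, aromatase, known as a FOXL2C134W target from earlier work, had at most 4 counts in any library. The interaction was called below 0 for 9 of them and above 0 for 2, NFKBIA and XBP1. The 9 were those given above and RRBP1, a ribosome receptor of the endoplasmic reticulum (-0.71 ± 0.13, adjusted p = 0.0125). The 11 that were not called included DLG5, a polarity scaffold (-0.39 ± 0.10, adjusted p = 0.0642), TAP1, the antigen peptide transporter (0.26 ± 0.07, adjusted p = 0.0599), AMIGO2, an adhesion protein (0.21 ± 0.06, adjusted p = 0.0819), and the ligands TGFB1 (-0.27 ± 0.08) and TGFB2 (-0.07 ± 0.06). ZYX (-0.27 ± 0.08) and ACTN1 (-0.11 ± 0.05), of focal adhesions, SDC4 (0.02 ± 0.06), a syndecan, and CXCL8 (0.05 ± 0.10), a chemokine, completed it with COL18A1 and BAZ2A.

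The genes below 0 also differed from all tested genes in the medians of transcript features that were not terms of the fit. Their median GC content was 59.1% against 49.1% over all tested genes and 44.5% for the genes above 0. Their median transcript length, weighted by abundance in the deposited tables, was 3972 bases against 2110 over all tested genes and 2146 above 0. Their median level was 52.6 CPM, against 26.4 CPM over all tested genes and 119 CPM above 0. How far higher counts made long transcripts easier to call was not tested. When all genes were split into 5 classes of equal size by GC content, 91 of the calls below 0 lay in the richest class and 1 in the poorest, and 0 and 4 of those above. Of the 612 genes that were in the richest class and the longest of 3 classes of length, 71 were called below 0 and 0 above, and their median interaction was -0.20.

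The levels of these 612 long, GC-rich genes moved with the conditions as a class. Their median relative to Vectors was 0.16, 0.13 and 0.12 in FOXL2C134W and -0.02, -0.11 and -0.03 in FOXL2WT. With FOXO1 it was 0.02, 0.03 and -0.03 in FOXL2WT + FOXO1 and -0.06, 0.08 and -0.05 in FOXL2C134W + FOXO1, and in Vectors 0.04, -0.02 and -0.01. With offsets per library for both length and GC content 222 genes were called, 44 above and 178 below 0. Of the 189 genes 150 were still called and all kept their sign, with a median of -0.43 in place of -0.51 for those below 0, and the chromatin, filamin and basement membrane lists had 15, 7 and 6 calls below 0 at medians of -0.24, -0.08 and -0.14. The share of the pattern that goes with length and GC content in library preparation was not tested beyond these offsets.

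At the threshold the calls ended without a gap. The last 2 genes called were NID1, a basement membrane linker (-0.28, adjusted p = 0.04996), and SRRM1, a splicing coactivator (-0.51, adjusted p = 0.04996). The first 2 not called were GPATCH8 (-0.45) and the pseudogene ARHGEF34P (-1.35), both with adjusted p = 0.0504 in edgeR. These 4 were chosen after their values were seen, for their place at the threshold.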

How the data were processed

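RNA-seq libraries of HGrC1 cells were quantified by the authors with Salmon 1.1.0 against hg38 transcripts with GENCODE identifiers, whose release is not given in the sources used here. The authors deposited 1 table of whole-number counts per gene for all 15 libraries and, per library, a table of expected counts, TPM (a share of all transcripts of the library) and effective length per transcript. The gene counts were not normalized by the authors. The submitters' processing notes also name DESeq2. Gene counts were used as deposited for every test, and the expected counts and TPM served for transcript lengths and length offsets only. Genes were placed with GENCODE 44 on GRCh38, matched by symbol, since the table pairs no coordinates.

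Groups and replicate letters came from the GEO labels. Genes were filtered with filterByExpr, scaled by TMM and fitted over all 15 libraries with the quasi-likelihood test of edgeR 4.0.16 (R 4.3.3, limma 3.58.1), with 1 coefficient per condition and no block. Calls had a Benjamini-Hochberg adjusted p under 0.05 over all tested genes, and errors of log2 fold changes are standard errors. Of 37787 genes 13868 were tested. DESeq2 1.42.0, other filters, scalings, offsets for length (lowess span 0.3) and GC content, a replicate block, the 12 libraries alone and omission of each library were alternatives. Joint length and GC offsets, a covariate for the variation between replicates and omission of 3 libraries were added after seeing the data. The fit was run on simulated counts with a common dispersion and independent replicates. That run does not assess error rates under the variation between replicates seen here. Tables and figures used Python 3.11.15, pandas 2.3.3, numpy 2.4.6 and matplotlib 3.10.9, and CPM were computed here.

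The members and gene lists were chosen with earlier results of these data known. Named genes were the transfected genes, 23 genes taken from the study's text, in each direction the 12 of smallest p and the 6 of largest change at a mean of at least 1 CPM, and up to 4 of smallest p per list. 1 gene that this rule names is not reported here.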

Additional observations from a re-analysis of the deposited data

Results flagged for a closer look

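The FOXO1 effect differed between FOXL2C134W and FOXL2WT, by the interaction term in edgeR at an adjusted p under 0.05, for 192 genes. The named genes among them are given here with the interaction on the log2 scale. The transfected genes were FOXL2 (0.60), SMAD3 (0.41) and FOXO1 (-1.41).

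Chromatin and transcription regulators were TNRC18 (-0.92), CREBBP (-0.87), NFIC (-0.82), GLI2 (-0.79), EP400 (-0.78), HCFC1 (-0.74), SMARCA4 (-0.65), BCL9L (-0.64), MN1 (-0.61), GATAD2A (-0.45) and BAHCC1 (-1.16). Matrix genes were HSPG2 (-0.88), LAMA5 (-0.68), COL5A1 (-0.55), COL4A2 (-0.37), COL1A1 (-0.34) and LTBP2 (-0.32). Cytoskeletal genes were PLEC (-0.68), MYH9 (-0.57), FLNC (-0.39), FLNA (-0.35) and MAP1A (-1.43). Of the cell cycle and centrosome were MKI67 (-1.39), CEP250 (-1.08), KIF18B (-0.34), FOXM1 (-0.29) and INCENP (-0.28). RRBP1 was at -0.71, ULK1 at -0.54, MT-ND4L at -0.68 and MT-ND1 at -0.46. ARHGAP11B was at -1.27, with reads that its copy may share, and PPP1R14BP3 at a fitted -11.07, which is no bound since many of its libraries held 0 counts.

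Above 0 were RSAD2 (0.52), C8orf76 (0.49), TEF (0.40), MTERF3 (0.39), F2RL1 (0.36), AVEN (0.36), CMPK2 (0.34), TRIM22 (0.31), UBE2L6 (0.31), KLF10 (0.31), IFIT5 (0.31), NFKBIA (0.30), SDC2 (0.30), AZIN1 (0.28) and XBP1 (0.24).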

How the results depend on the processing

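The interaction gave 366 genes with DESeq2, 120 with DESeq2 and transcript length offsets, 551 with a filter of at least 1 count in any library, 644 with the replicate covariate and 1188 without the 3 libraries that stood apart. The FOXO1 effect with FOXL2C134W gave, in the same order, 224, 61, 463, 492 and 729 genes, and 170 with at least 10 counts in every library, 65 with 12 libraries and 42 with GC offsets. With FOXL2WT it gave 62, 69, 260, 134 and 102, then 13, 3 and 22, with 26 under length offsets, 22 under these with the block and 39 under length and GC offsets. FOXL2C134W against FOXL2WT without FOXO1 gave 759 with transcript length offsets, 2938 with the covariate and 3033 without the 3 libraries. With FOXO1 it gave 95 with DESeq2, 65 with transcript length offsets, 446 and 32 with the filters of 1 and 10 counts, 48 with length, 57 with GC, 99 with both, 40 with length and block, and 867 with the covariate.

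The correlation of the FOXO1 effects was 0.353 with DESeq2, 0.255 with transcript length offsets, -0.13 with the filter of 10 counts and 0.036 with 12 libraries. That of the FOXL2C134W effects without and with FOXO1 was 0.14, and 0.087 with transcript length offsets, 0.018 and 0.289 with the filters of 1 and 10 counts, 0.19 with 12 libraries and 0.064 without the 3 libraries. Leaving out 1 library gave 45 to 423 genes for the interaction, 5 to 355 and 2 to 10 for the FOXO1 effect with FOXL2C134W and FOXL2WT, 772 to 2120 and 7 to 38 for the FOXL2 forms without and with FOXO1, and correlations of -0.056 to 0.072 and 0.037 to 0.14. The lowest and highest of each were without FOXL2C134W + FOXO1 A and FOXL2C134W A for the interaction, FOXL2C134W B and A with FOXL2C134W, FOXL2WT + FOXO1 B and FOXL2C134W A with FOXL2WT, FOXL2WT B and FOXL2C134W A without FOXO1, and FOXL2C134W + FOXO1 A and FOXL2C134W A with it.

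Signs turned for CXCL8 (-0.0026 with GC offsets, -0.027 with length and GC offsets, -0.014 to 0.11 without a library), for SDC4 (-0.024 to 0.073 without a library) and, with transcript length offsets, for ARHGAP11B (0.0035), SDC2 (-0.11) and INCENP (0.13). Of the 189 members 180 kept their sign with these offsets and 57 their call. The causes were not tested. With the replicate block the interaction gave 163 genes, 17 above and 146 below 0. The 12 libraries alone gave 132, 9 above and 123 below 0. Same-letter libraries of different conditions had correlations of their deviations from -0.24 to 0.48, and different-letter libraries from -0.51 to 0.38. These overlapping ranges do not decide whether a letter links libraries. The labels do not say so either, and the letters were not taken to pair samples. The depth of 14962245 to 25339094 counts and 3 libraries a condition limit what the interaction can show for weakly expressed genes.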
